A study of Mus musculus with 15 samples.

Results

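A set of 10 genes that mark neurons of the cerebellum were followed through bulk RNA sequencing of mouse midbrain. They were chosen by name, as the rows of the count table whose gene ID maps to Gabra6, Cbln3, Fat2, Neurod1, Barhl1, Cbln1, Pcp2, Car8, Zic1 and Zic2, which makes 10 of the 24454 genes in the table. There were 15 libraries in 5 groups of 3. WT control and WT intranasal came from wild-type BDF1 mice, and TG control, TG intranasal and TG drinking water from transgenic Thy1-aSyn mice, in which the Thy1 promoter drives an alpha-synuclein transgene in neurons. The intranasal groups received 2 mg of the dipeptide carnosine through the nose. The drinking water group received 10 mM carnosine to drink. Treatment began at an age of 2 months and went on for 2 months. The labels do not say whether libraries of a group came from separate animals, so p-values measure the spread between these libraries only.

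The cerebellum lies directly behind the midbrain and is made largely of granule neurons, small excitatory cells whose parallel fibres contact the dendrites of Purkinje neurons. Granule neurons carry a GABA-A receptor with the alpha 6 subunit and release cerebellins, secreted proteins that bind neurexins on the fibre and help hold its synapses. Purkinje neurons send the only output of the cerebellar cortex. Gabra6, Cbln3 and Fat2 are close to specific for granule neurons in the brain, whereas Cbln1, Car8, Neurod1, Zic1 and Zic2 are also used by neurons of other regions.

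Gabra6, Cbln3 and Fat2 varied most between the libraries and moved largely together, so the windows at their annotated starts are shown. Each window runs from 250 bases before to 50 bases after the gene's start in RefSeq, assembly GRCm38.p6, all on the minus strand and written 5′ to 3′. Capitals mark the motifs searched on both strands, namely the E-box CAGNTG bound by Neurod1 and its relatives, the nuclear factor I half-site TTGGC, and CAGCAG, the core of a Zic site.
Gabra6, chr11:42321023-42321322: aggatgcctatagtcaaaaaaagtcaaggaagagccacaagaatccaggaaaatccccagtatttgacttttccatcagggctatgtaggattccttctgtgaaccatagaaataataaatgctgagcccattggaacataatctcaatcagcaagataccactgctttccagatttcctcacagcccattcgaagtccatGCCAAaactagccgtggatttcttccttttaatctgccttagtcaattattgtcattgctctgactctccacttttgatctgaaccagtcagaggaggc
Cbln3, chr14:55884207-55884506: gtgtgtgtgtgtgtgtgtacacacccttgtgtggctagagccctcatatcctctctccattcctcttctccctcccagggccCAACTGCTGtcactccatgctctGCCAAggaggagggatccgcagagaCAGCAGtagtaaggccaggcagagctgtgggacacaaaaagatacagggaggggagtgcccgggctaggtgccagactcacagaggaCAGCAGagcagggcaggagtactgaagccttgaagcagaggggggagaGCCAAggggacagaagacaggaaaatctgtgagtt
Fat2, chr11:55312208-55312507: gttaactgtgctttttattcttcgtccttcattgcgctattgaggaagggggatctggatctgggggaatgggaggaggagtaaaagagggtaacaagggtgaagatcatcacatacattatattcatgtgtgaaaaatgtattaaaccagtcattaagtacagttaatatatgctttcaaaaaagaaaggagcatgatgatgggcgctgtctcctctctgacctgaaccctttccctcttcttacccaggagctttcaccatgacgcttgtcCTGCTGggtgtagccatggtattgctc
The Gabra6 window held 1 nuclear factor I half-site. The Cbln3 window held 1 E-box, 2 half-sites and 3 CAGCAG cores, 1 of which overlaps the E-box. The Fat2 window held 1 CAGCAG core, at base 24 after the annotated start, and neither of the other motifs. Whether that start is where transcription begins was not tested, so the Fat2 window may not be a promoter. Among all 32851 promoter windows, 51.4% held an E-box, 46.7% a half-site and 31.6% a CAGCAG core. The 7 genes of the set with a window in the RefSeq table had 11 windows, of which 6, 4 and 2 held a match. Counted by gene, 3, 4 and 2 of the 7 had a match in at least 1 window. A match of this kind is a description of the letters. The count table's own build is not given in the sources used here, and the windows serve to show sequence only.

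Gabra6 (gene ID 14399), the alpha 6 subunit of the GABA-A receptor, was near 0 in most midbrain libraries and present in a few. Levels are CPM, counts scaled to a common library size after TMM scaling, which lines libraries up on the trimmed mean of their log ratios. In WT control 1 to 3 it stood at 0.168, 0 and 0 CPM, and in WT intranasal 1 to 3 at 0, 14.4 and 18.6 CPM. In TG control 1 to 3 it stood at 0.143, 0.350 and 0 CPM, in TG intranasal 1 to 3 at 0.286, 2.46 and 0 CPM, and in TG drinking water 1 to 3 at 0.201, 0.267 and 12.6 CPM. WT intranasal 2, WT intranasal 3 and TG drinking water 3 were thus far above the other 12 libraries, while their own group mates lay among the controls. TG intranasal 2 was next. The counts behind these levels were 877, 482 and 228 reads in the 3 highest libraries and 60 in TG intranasal 2, against 0 to 9 in the other 11. With 3 counts taken as the upper limit that a count of 0 allows, the 0 in WT intranasal 1 allows up to 0.101 CPM. In a bulk library fewer cells of a type and less RNA per cell cannot be told apart.

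Cbln3 (gene ID 56410), a cerebellin that granule neurons secrete together with Cbln1, was also highest in those 3 libraries. It stood at 1.26, 0.681 and 1.35 CPM in WT control 1 to 3 and at 1.31, 23.8 and 32.7 CPM in WT intranasal 1 to 3. It stood at 0.998, 2.38 and 0.348 CPM in TG control 1 to 3, at 1.91, 4.92 and 5.13 CPM in TG intranasal 1 to 3, and at 0.603, 1.25 and 27.4 CPM in TG drinking water 1 to 3. Next in order after the 3 highest were TG intranasal 3 and TG intranasal 2. WT intranasal 1 lay inside the range of WT control.

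Fat2 (gene ID 245827), a large cadherin of the granule cell's parallel fibre, was likewise highest in those libraries. It stood at 0.927, 0.371 and 0 CPM in WT control 1 to 3 and at 0.346, 12.1 and 21.8 CPM in WT intranasal 1 to 3. It stood at 0.285, 1.05 and 0.174 CPM in TG control 1 to 3, at 4.07, 2.30 and 0.415 CPM in TG intranasal 1 to 3, and at 0.804, 0.847 and 7.98 CPM in TG drinking water 1 to 3. Every group that held a high library therefore also held a low one, and no treated group was separated from its control for Fat2.

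**Figure D1:**
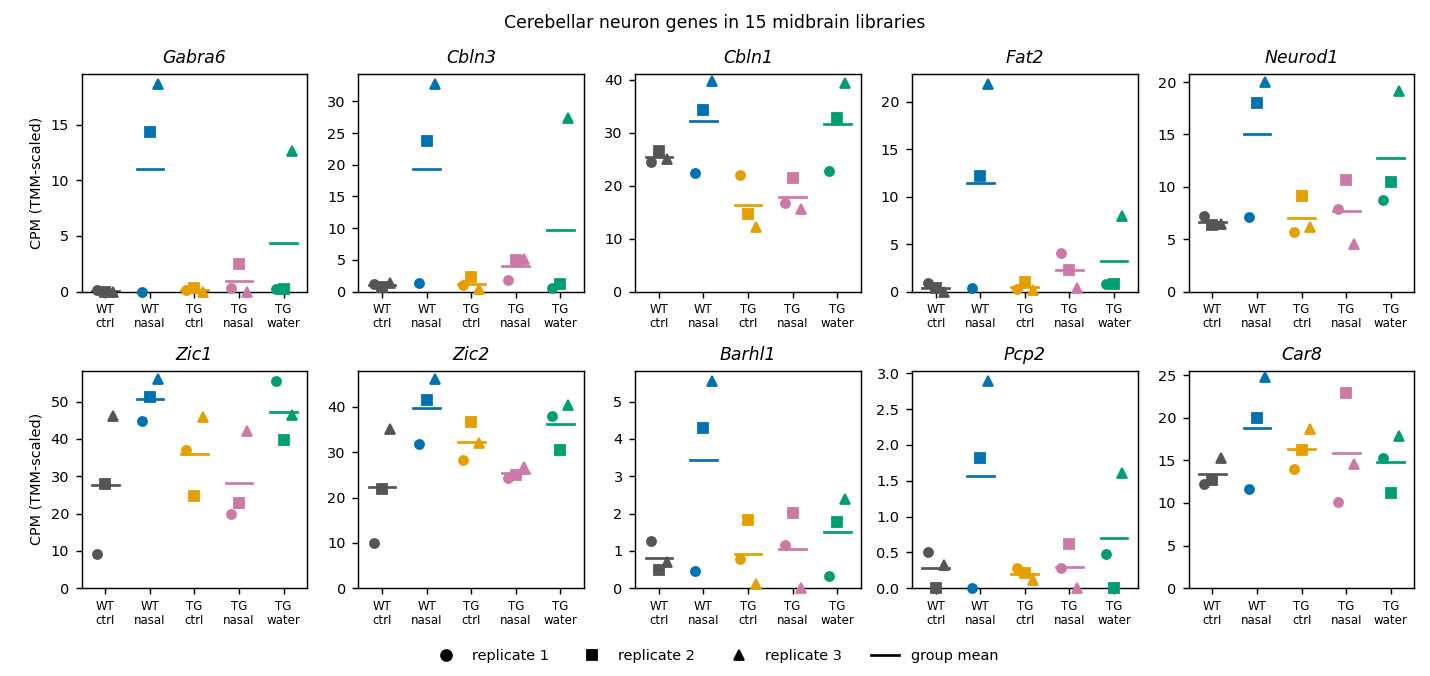
Level of each of the 10 genes in every library, in CPM on a linear axis for each gene, with 1 point for each library, its shape showing the replicate, and a line at the mean of each group. WT intranasal 2 and 3 and TG drinking water 3 are the 3 highest points for 8 of the 10 genes, whereas WT intranasal 1 sits with the controls.

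Neurod1 (gene ID 18012), a transcription factor that granule neurons need to mature and survive, was detected in every library. In WT control 1 to 3 it stood at 7.24, 6.37 and 6.41 CPM and in WT intranasal 1 to 3 at 7.16, 17.96 and 19.99 CPM. In TG control 1 to 3 it stood at 5.70, 9.09 and 6.15 CPM, in TG intranasal 1 to 3 at 7.91, 10.7 and 4.53 CPM, and in TG drinking water 1 to 3 at 8.77, 10.4 and 19.1 CPM. The 3 highest libraries were again the same, above 10.7 CPM in TG intranasal 2. Barhl1 (gene ID 54422), a homeobox factor of the granule lineage, reached 4.29 and 5.56 CPM in WT intranasal 2 and 3 and 2.38 CPM in TG drinking water 3. Elsewhere it ran from 0 in TG intranasal 3 to 2.01 CPM in TG intranasal 2, so the gap to TG drinking water 3 was small.

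Cbln1 (gene ID 12404), the founding cerebellin, is also made by neurons outside the cerebellum and was well above 0 everywhere. It stood at 24.4, 26.6 and 25.1 CPM in WT control 1 to 3 and at 22.4, 34.3 and 39.7 CPM in WT intranasal 1 to 3. It stood at 22.0, 14.7 and 12.2 CPM in TG control 1 to 3, at 16.7, 21.4 and 15.7 CPM in TG intranasal 1 to 3, and at 22.8, 32.8 and 39.5 CPM in TG drinking water 1 to 3. TG control lay wholly below WT control and wholly below TG drinking water. TG drinking water 2 was close behind the 3 highest libraries, unlike for Gabra6, Cbln3 and Fat2.

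Of the Purkinje neuron genes, Pcp2 (gene ID 18545), a modulator of G protein signalling, was scarce. It reached 1.82, 2.89 and 1.61 CPM in WT intranasal 2, WT intranasal 3 and TG drinking water 3, and 0 to 0.615 CPM in the others, with 0 in 4 libraries. Its gene body overlaps Pet100 in RefSeq, and the strand setting of the counting is not given in the sources used here, so reads of the pair may be shared. Car8 (gene ID 12319), a protein that inhibits the IP3 receptor of Purkinje cells, ran from 10.1 CPM in TG intranasal 1 to 24.8 CPM in WT intranasal 3. Its second highest library was TG intranasal 2 at 22.9 CPM, and TG drinking water 3 was lower at 17.9 CPM.

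Zic1 (gene ID 22771) and Zic2 (gene ID 22772), zinc finger factors of the granule lineage and of other dorsal neural tissue, were detected in every library. Zic1 ran from 9.10 CPM in WT control 1 to 56.0 CPM in WT intranasal 3, with TG drinking water 1 second at 55.5 CPM. Zic1 overlaps Zic4 in RefSeq, with the same limit on shared reads. Zic2 stood at 9.94, 22.0 and 35.1 CPM in WT control 1 to 3 and at 31.9, 41.5 and 46.2 CPM in WT intranasal 1 to 3. Zic2 stood at 28.3, 36.6 and 32.1 CPM in TG control 1 to 3, at 24.4, 24.9 and 26.7 CPM in TG intranasal 1 to 3, and at 38.0, 30.5 and 40.4 CPM in TG drinking water 1 to 3. TG intranasal was wholly below TG control for Zic2, and WT control 1 was low for both genes.

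Over the 10 genes, WT intranasal 3 was the highest of all 15 libraries for every gene. WT intranasal 2, WT intranasal 3 and TG drinking water 3 were the 3 highest libraries for 8 of the 10, the exceptions being Car8 and Zic1. The same 3 libraries were the highest for 0.746% of the 15818 genes tested. They were singled out because of these genes, so the count describes the libraries and tests nothing. WT intranasal 2 and WT intranasal 3 each lay above all 3 WT control libraries for 10 of 10 genes. WT intranasal 1 lay above them for 0, within their range for 7 and below it for 3. TG drinking water 3 lay above all 3 TG control libraries for 9 genes, TG drinking water 1 for 4 and TG drinking water 2 for 2. In TG intranasal the numbers above TG control were 2, 7 and 1 genes for libraries 1 to 3. The mean log2 CPM of the 10 genes was 3.98, 4.34 and 3.81 in the 3 high libraries and 0.96 to 2.70 in the others, where the highest was TG intranasal 2.

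Counts of the granule neuron genes relative to each other were then compared within libraries, since such a ratio does not depend on scaling. Gabra6 had 0.604 reads for each read of Cbln3 in WT intranasal 2 (95% exact interval 0.555 to 0.657, counting error only). The ratio was 0.569 (0.508 to 0.637) in WT intranasal 3 and 0.462 (0.393 to 0.541) in TG drinking water 3. It was 0.5 (0.360 to 0.687) in TG intranasal 2, so the ratio ran from 0.462 to 0.604 in the 4 libraries with the most Gabra6. The intervals of WT intranasal 2 and TG drinking water 3 do not overlap. These libraries were picked for high Gabra6, which is itself part of the ratio. TG intranasal 3 was different. It held 173 reads of Cbln3 and 0 of Gabra6, a ratio of 0 with an upper bound of 0.0216, and it also had 0 reads of Pcp2 and Barhl1. TG intranasal 1 held 9 reads of Gabra6, or 0.15 for each read of Cbln3 (0.0654 to 0.304), below the intervals of those 4 libraries. It held 2.13 reads of Fat2 for each read of Cbln3 (1.56 to 2.95). In WT intranasal 2, WT intranasal 3 and TG drinking water 3 the Fat2 ratio was 0.511 (0.467 to 0.559), 0.668 (0.600 to 0.744) and 0.291 (0.240 to 0.352). None of these 3 intervals overlap. The Barhl1 ratio was 0.180 (0.158 to 0.206), 0.170 (0.141 to 0.203) and 0.0870 (0.0622 to 0.119) there, the last below the others. For Neurod1 the intervals of WT intranasal 2 and 3 did not overlap, and for Pcp2 all 3 did. In TG drinking water 1, at far fewer reads, the Fat2 ratio was 1.33 with an interval of 0.649 to 2.80, which overlaps that of TG intranasal 1.

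**Figure D2:**
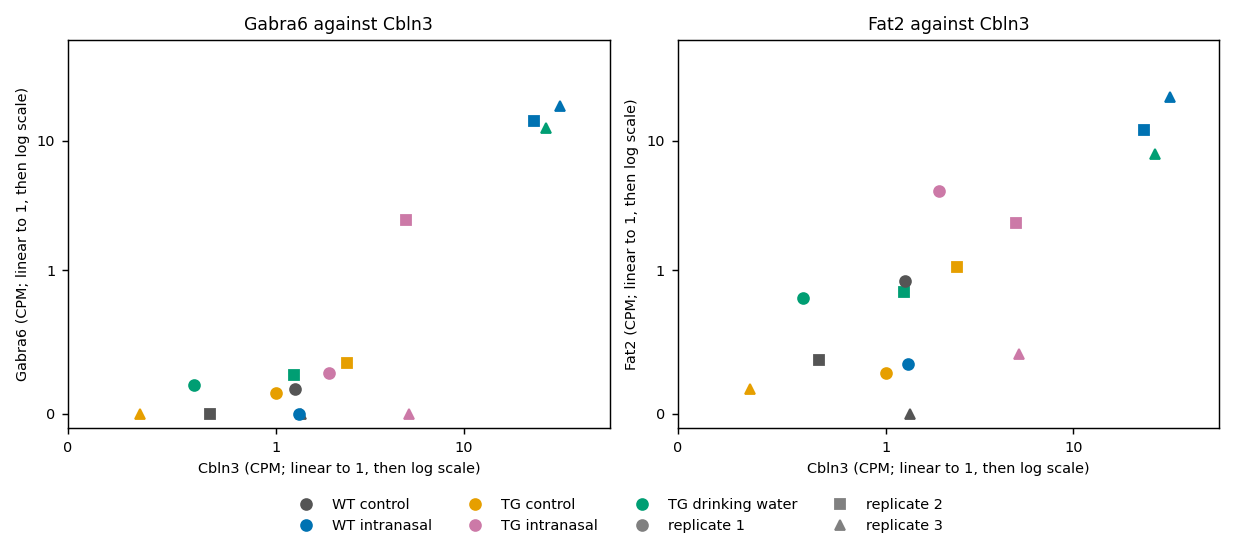
Levels of Gabra6 and of Fat2 against Cbln3 in CPM, 1 point for each library, on axes that are linear up to 1 CPM and logarithmic above. WT intranasal 2, WT intranasal 3, TG drinking water 3 and TG intranasal 2 hold 0.462 to 0.604 Gabra6 reads and 0.291 to 0.668 Fat2 reads for each Cbln3 read. TG intranasal 3 lies on the floor with 173 Cbln3 reads and 0 of Gabra6.

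Nasal carnosine in wild-type mice was examined by setting WT intranasal against WT control. All 10 genes had a higher fitted level in WT intranasal, as did 52.2% of all genes tested, and Gabra6, Fat2 and Cbln3 had the largest differences of the 10, but none passed the test. Gabra6 went from 0.0562 ± 0.0973 to 10.99 ± 9.75 CPM (SD, n = 3 each), Cbln3 from 1.10 ± 0.363 to 19.3 ± 16.2 CPM, and Fat2 from 0.433 ± 0.466 to 11.4 ± 10.8 CPM. The SD of the treated group was close to its mean for all 3, and WT intranasal 1 was the low library. The groups overlapped for all 10 genes, where 13.2% of all genes were separated with WT intranasal higher. Over the pooled reads Gabra6 was 256-fold higher (95% counting interval 70.6 to 2113), from 1359 reads against 2, an interval that leaves out the spread between libraries. In the quasi-likelihood test of edgeR, with p-values adjusted over all genes by Benjamini and Hochberg, the log2 fold change was 4.80 for Fat2 (SE 1.37, adjusted p = 0.0709) and 4.14 for Cbln3 (SE 1.25, adjusted p = 0.0811). For Gabra6 it was 7.73 (SE 2.38, adjusted p = 0.0833 by edgeR), a value that depends on the 2 reads in WT control.

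Neurod1 had a log2 fold change of 1.17 (SE 0.38, edgeR adjusted p = 0.0946), from 6.68 ± 0.491 to 15.03 ± 6.90 CPM (SD, n = 3 each). Barhl1 was at 2.08 (SE 1.13) and Pcp2 at 2.55 (SE 1.5). Zic1 and Zic2 were at 0.86 (SE 0.40) and 0.83 (SE 0.29), Car8 at 0.49 (SE 0.29) and Cbln1 at 0.34 (SE 0.25). In all, edgeR called 0 of the 10 genes at an adjusted p under 0.05, where 1.01% of the 15818 genes tested were called. An unadjusted p under 0.05 was reached by 6 of the 10, against 24% of all genes tested. DESeq2 gave an adjusted p for 8 of the 10, not for Pcp2 and Barhl1, and called 4, namely Gabra6 (adjusted p = 0.0406), Cbln3 (0.0208), Fat2 (0.0201) and Neurod1 (0.0349), where it called 10.8% of the genes for which it gave an adjusted p. The median log2 fold change was 1.63 over the 10 genes and 0.02 over all genes tested. Gabra6 and Pcp2 passed the filter on low counts through few libraries, 4 and 5 of 15 being above its minimum of 0.498 CPM, so these counts and medians are descriptions.

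The result rests on WT intranasal 2 and 3. With both left out, the remaining WT intranasal 1 against WT control gave log2 fold changes of -0.25 for Fat2, -0.84 for Barhl1, -0.20 for Car8 and -0.18 for Cbln1, with the lone library assumed to vary like the other groups. Gabra6 and Pcp2 then had 0 counts in the remaining library and no fold. Cbln3 was at 0.27, Neurod1 at 0.10, Zic1 at 0.69 and Zic2 at 0.51, and the median over these 8 genes was -0.04. With WT intranasal 1 left out instead, edgeR called 4 of the 10 genes, namely Gabra6, Cbln3, Fat2 and Neurod1, and 960 genes in all, against 159 with every library. The libraries left out here were known as high or low from these same genes. Both outcomes therefore describe the libraries and test nothing.

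**Figure D3:**
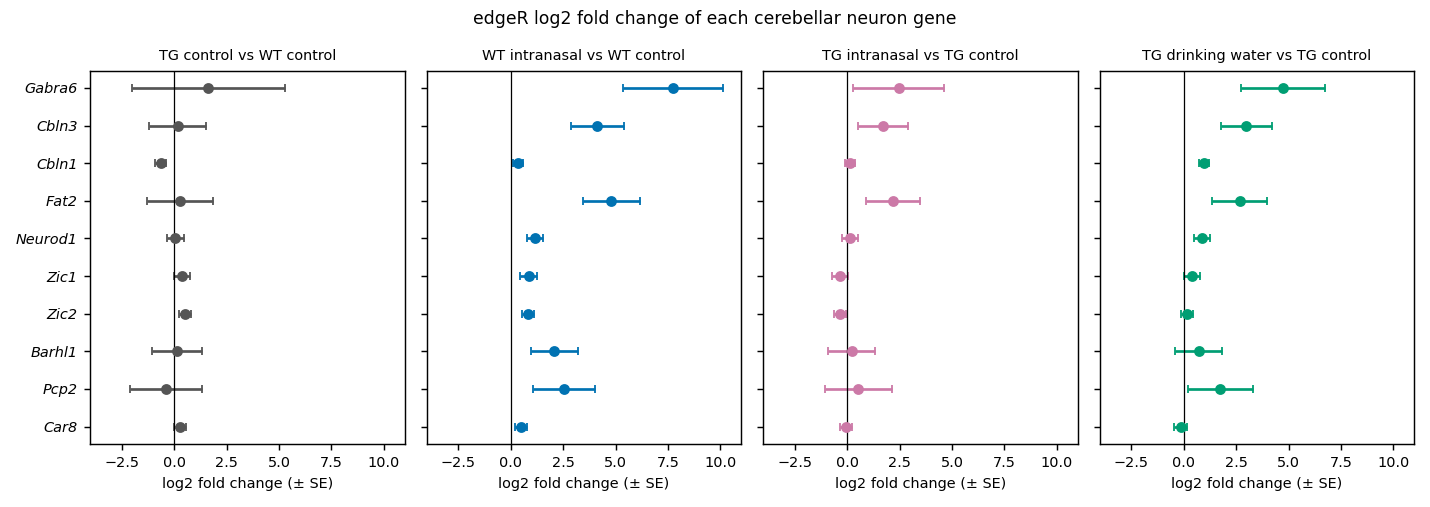
Log2 fold change of each gene by edgeR in the 4 comparisons with a control group, 1 panel each, with bars of 1 SE on either side. The points for Gabra6, Cbln3 and Fat2 in WT intranasal against WT control are the farthest right in that panel, at 7.73, 4.14 and 4.80, with SEs of 2.38, 1.25 and 1.37.

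**Figure D4:**
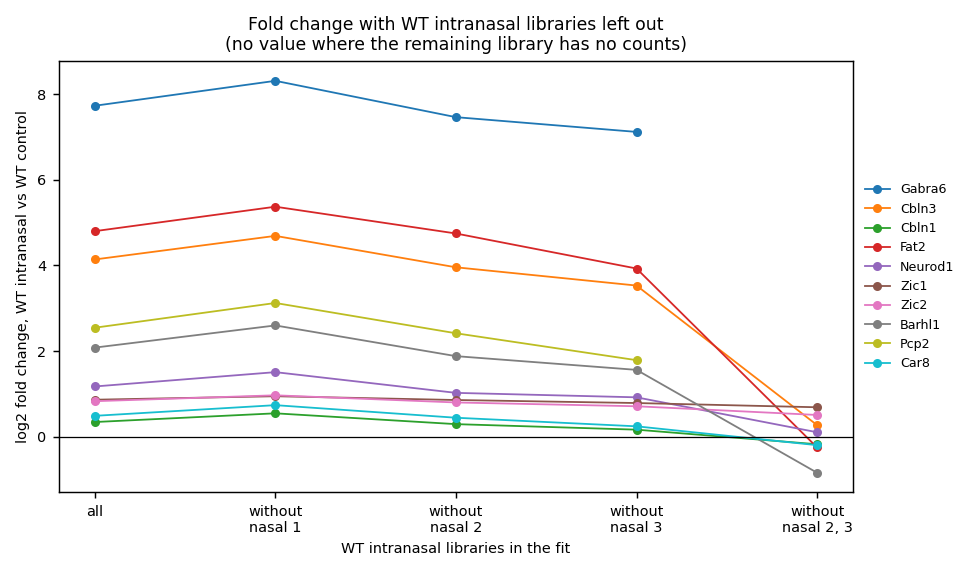
Log2 fold change of each gene in WT intranasal against WT control with all libraries and with WT intranasal libraries left out, the lines joining values of 1 gene. Fat2, at 4.80 with all libraries, is at -0.25 without WT intranasal 2 and 3, and Gabra6 and Pcp2 have no value there.

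Carnosine given to drink was examined by setting TG drinking water against TG control. Gabra6, Cbln3 and Fat2 were above the range of TG control in TG drinking water 3 and not in TG drinking water 1 or 2. Gabra6 went from 0.164 ± 0.176 to 4.37 ± 7.16 CPM (SD, n = 3 each) and Cbln3 from 1.24 ± 1.04 to 9.74 ± 15.3 CPM. In TG drinking water both SDs were above the means. In edgeR's test the log2 fold change was 4.74 for Gabra6 (SE 2.02, adjusted p = 0.543) and 2.98 for Cbln3 (SE 1.22, adjusted p = 0.516). Without TG drinking water 3 that of Cbln3 was -0.39 and the median of the 10 genes fell from 0.91 to 0.35. Cbln1 behaved differently, since all 3 treated libraries exceeded all 3 controls. It went from 16.3 ± 5.06 to 31.7 ± 8.38 CPM, with 0.96 as its log2 fold change (SE 0.25, edgeR adjusted p = 0.235), and 6.44% of genes tested were separated in that direction. Of the 10 genes edgeR called 0, where it called 0.00632% of all genes, and 4 had an unadjusted p under 0.05, against 8.07% of all genes. DESeq2 gave an adjusted p for 3 of the 10, Cbln1, Zic1 and Zic2, and called Cbln1 (adjusted p = 0.0204), where it called 2.37% of the genes for which it gave one.

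TG intranasal was compared with TG control, the same control libraries. Fat2 was at a log2 fold change of 2.18 (SE 1.31), Gabra6 at 2.45 (SE 2.15) and Cbln3 at 1.70 (SE 1.20). Without TG intranasal 2 the Gabra6 value was -0.15. Zic2 went from 32.3 ± 4.18 to 25.3 ± 1.19 CPM (SD, n = 3 each), its log2 fold change being -0.35 (SE 0.29), and was the 1 gene of the set with groups that do not overlap, as were 5.86% of all genes in that direction. By edgeR 0 of the 10 genes were called (0.00632% of all genes) and 0 had an unadjusted p under 0.05 (9.74%), and DESeq2 called 0 (0.12%). The median was 0.18.

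Between the untreated genotypes the granule neuron genes were low on both sides. Cbln1 was lower in TG control, at 16.3 ± 5.06 against 25.4 ± 1.09 CPM (SD, n = 3 each), at -0.64 on the log2 scale (SE 0.25), which did not pass in edgeR (adjusted p = 0.217). It was the 1 gene of the set with separated groups, as were 9.07% of all genes in that direction. Zic2 was at 0.53 (SE 0.29). By edgeR 0 of the 10 genes were called, where 0.0126% of all genes were, 1 had an unadjusted p under 0.05, against 18.1%, and DESeq2 called 0 of the 8 for which it gave an adjusted p (not Pcp2 and Barhl1), against 3.19%.

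The genotypes under nasal carnosine and the routes in TG mice were compared last. All 10 genes had a lower fitted level in TG intranasal than in WT intranasal, with a median log2 fold change of -1.35, where 48.7% of all genes were higher. The groups were separated for Cbln1, Zic1 and Zic2, which makes 3 of 10, against 13% of all genes in that direction. Cbln1 was at -0.84 (SE 0.25, edgeR adjusted p = 0.250) and Gabra6 at -3.64 (SE 1.58, edgeR adjusted p = 0.288). By edgeR 0 were called (0.0632% of all genes), 6 had an unadjusted p under 0.05 (15.9%), and DESeq2 called 0 (0.835%). With WT intranasal 2 and 3 left out, 5 of the 8 genes with a value turned, such as Cbln3 to 1.59 and Fat2 to 2.68, while Cbln1 at -0.32, Zic1 at -0.66 and Zic2 at -0.33 kept their direction. The genotype by intranasal interaction, the log2 fold change of nasal carnosine in TG minus that in WT, was below 0 for all 10 genes, where 47.4% of all genes were above 0. Its median was -1.54, and Zic2 was nearest to the threshold at -1.18 (SE 0.41, edgeR adjusted p = 0.0804). By edgeR 0 were called (2.32% of all genes), 2 had an unadjusted p under 0.05 (28.6%), and DESeq2, with an adjusted p for 9 of the 10 (not Pcp2), called Zic2 (adjusted p = 0.0414, with 17.2% of genes called).

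TG intranasal was lower than TG drinking water for 9 of the 10 genes, with a median of -0.73, where 52.1% of all genes were higher. The groups were separated for 2 of them, Cbln1 and Zic2, against 9.14% of all genes in that direction. Cbln1 was at -0.82 (SE 0.25, edgeR adjusted p = 0.553), and Car8 was higher by 0.10 (SE 0.29). By edgeR 0 were called (0% of all genes), 1 had an unadjusted p under 0.05 (7.26%), and DESeq2 called 0 (0.152%). Without TG drinking water 3 the median was 0.11.

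In the order of the group means WT intranasal came first for all 10 genes. TG drinking water came second for 9 of them, and for Car8 TG control did. Neighbours in that order had overlapping ranges except TG control above TG intranasal for Zic2 and WT control above TG intranasal for Cbln1. Levels were also taken per kilobase of the longest transcript in the GENCODE annotation. The mean in WT control was then 9.15 CPM for Zic2 and 9.05 for Cbln1, against 0.225 for Cbln3, 0.0298 for Fat2 and 0.0228 for Gabra6. In WT intranasal the mean for Gabra6 was 4.45 CPM per kilobase, between those of Cbln3 at 3.96 and Car8 at 4.88. That mean takes in WT intranasal 1, where Gabra6 was at 0. In WT intranasal 3 alone Gabra6 was at 7.54 CPM per kilobase, above Cbln3 at 6.72 and Car8 at 6.44.

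Other genes of cerebellar cells were read from lists. Of 24 other granule neuron genes, 0 were called by edgeR in WT intranasal against WT control, 19 were higher, against 52.2% of all genes, and 4 had an unadjusted p under 0.05, against 24%. Their median log2 fold change was 0.28. Their mean log2 CPM was 5.11, 5.23 and 5.01 in WT intranasal 2, WT intranasal 3 and TG drinking water 3 and 4.38 to 4.79 in the others. Their summed level did not separate these libraries, at 2407, 2421 and 2131 CPM against 1712 to 3062 CPM elsewhere. Of the 24 genes, 3 had them as the 3 highest libraries, namely Cadps2, Crtam and En2, against 0.746% of all genes. In these 3 libraries Crtam, a cell adhesion protein, stood at 2.47, 2.20 and 1.83 CPM, against 0 to 0.985 CPM elsewhere. En2, a homeobox factor of the midbrain and hindbrain, stood at 5.17, 8.18 and 6.32 CPM, against 0.348 to 4.38 CPM. Zic4 was at 1.16 (SE 0.38) and Calb2, a calcium buffer of granule neurons and many others, at -0.53 (SE 0.16). Gabrd, the delta subunit that joins alpha 6 in granule neurons and is also used in the forebrain, did not share the pattern, at 35.0, 33.6 and 31.1 CPM in the 3 libraries and 21.2 to 69.8 CPM elsewhere.

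The Purkinje list had 19 of 20 genes tested, 10 of them higher in WT intranasal, with a median of 0.16. Of the 19, 1 was highest in the same 3 libraries, the protein phosphatase inhibitor Ppp1r17, at 3.78, 3.86 and 1.94 CPM against 0.248 to 1.52 CPM elsewhere. The 1 gene called by edgeR, the G protein gamma subunit Gng13, fell by 1.78 on the log2 scale (SE 0.38, adjusted p = 0.0467). In the interaction edgeR called Gng13 at 2.40 (SE 0.53) and the calcium buffer Pvalb at 1.63 (SE 0.39), each with an adjusted p of 0.0487. These calls lie near the threshold, and of 27 other settings 14 gave 0 calls in WT intranasal against WT control and 15 gave 0 in the interaction. Of 9 Bergmann glia genes and 10 genes of cerebellar interneurons and unipolar brush cells 0 were called in WT intranasal, against 1.01% of all genes. Their medians were 0.38 and 0.23, and 5 and 0 of them had an unadjusted p under 0.05 by edgeR, against 24%. Of 8 genes for cerebellins and their partners, a list that includes Cbln1 and Cbln3 of the set, 0 were called there. All 8 were higher, against 52.2% of all genes, and 3 had an unadjusted p under 0.05 by edgeR.

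Markers of other tissue moved with the same libraries. Of 8 meningeal fibroblast genes, 5 had WT intranasal 2, WT intranasal 3 and TG drinking water 3 as their 3 highest libraries, against 0.746% of all genes, and the summed level was 269, 305 and 318 CPM there against 90.4 to 254 CPM elsewhere. In WT intranasal against WT control edgeR called 3 of the 8, against 1.01% of all genes, namely the matrix genes Fmod at 2.31 (SE 0.39, adjusted p = 0.0467), Aebp1 at 1.61 (SE 0.32, adjusted p = 0.0467) and Col1a2 at 1.23 (SE 0.28, adjusted p = 0.0476). All 8 were higher, with a median of 1.28, and 14 of 27 other settings gave 0 calls. The part of the meningeal genes in the levels of the cerebellar genes was not tested. The midbrain's own dopamine neuron genes had a mean log2 CPM of 3.26, 3.34 and 3.50 in the 3 libraries and 1.05 to 3.45 in the others, so markers of the labelled tissue were present there. WT intranasal 1, the low library of its group for Gabra6, was also low for this list, at 1.37. The summed level of the list was 298, 391 and 388 CPM in WT intranasal 1 to 3. In TG drinking water 1 and 2 the mean log2 CPM was 2.33 and 3.45. Th, which makes dopamine's precursor, ran from 2.96 CPM in TG intranasal 3 to 28.1 CPM in TG drinking water 3. Of the 9 hindbrain and raphe genes tested 0 had these as their 3 highest libraries, but within the treated groups the list moved with them. The summed level of its 14 genes was 7.02, 41.8 and 56.4 CPM in WT intranasal 1 to 3, 6.31, 6.11 and 25.3 CPM in TG drinking water 1 to 3, and 18.3, 64.6 and 13.2 CPM in TG intranasal 1 to 3. The highest of all was WT control 1 at 76.3 CPM, a library low in Gabra6. The part of the hindbrain genes in the levels of the cerebellar genes was not tested.

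Among all 14877 eligible genes outside the set, those whose log2 CPM most resembled the mean of the 10 over the 15 libraries were named. Crtam had the highest Pearson r at 0.90, followed by Asph at 0.87, Smad9 at 0.86, Lingo4, Ptgds and Etv1 at 0.85, Podn at 0.84, Zkscan2, Sphk1 and Slc6a20a at 0.84, Aldh1a2 at 0.83 and Slc6a13 at 0.83. Etv1 and Crtam are on the list of other granule neuron genes, and Slc6a13 is on the meningeal fibroblast list. Over the 12 libraries without the 3 high ones r was 0.59 for Crtam, 0.92 for Lingo4, 0.90 for Asph and 0.36 for Slc6a13. These are descriptions over 15 libraries that differ in depth.

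Facts of the whole series that touch these values were few. Libraries held 13202199 to 60542423 counts, the deepest being WT intranasal 2. The most abundant unnamed row took 2.31% to 6.22% of counts in 8 libraries and 0.122% to 0.320% in the other 7. The 8 were every WT library with TG control 1 and 2, and the 7 were TG control 3 with every treated TG library. The 3 high libraries fall on both sides of that split. TG intranasal and WT intranasal lie wholly on opposite sides, so genotype and split cannot be told apart there. TG control has libraries on both sides, so TG control against WT control mixes genotype and split in part. The treated TG groups against TG control mix treatment and split in part, and the interaction is mixed with the split in part too. Across genes the fold change of WT intranasal against WT control rose with transcript length (Spearman rho 0.57 over 15081 genes). The other comparisons had rho from -0.59 in the interaction to 0.55 in TG control against WT control. The weakest was -0.16 in TG drinking water against TG control. The 10 genes had a median length of 3233 bases, against 3411 for all, and after a correction for length their median log2 fold change was 1.66.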

How the data were processed

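Total RNA of 15 midbrain samples was sequenced, per the labels. The table that the authors deposited holds raw counts, whole numbers per gene and library without normalization. Aligner, counter, genome build, annotation and strand are steps for which the sources used here give nothing. Gene IDs were named from a RefSeq table of assembly GRCm38.p6 (24374 of 24454). The 80 unnamed ones took between 0.148% and 6.23% of the counts in a library.

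The analysis used edgeR 4.0.16 in R 4.3.3 (filterByExpr, leaving 15818 genes, TMM scaling, a mean per group fitted to all 15 libraries, quasi-likelihood F-test). Genes were called at a Benjamini-Hochberg adjusted p under 0.05 over all genes tested. Unless DESeq2 is named, a fold change, SE or adjusted p comes from that fit. Log2 CPM used a prior count of 2. Ratios of counts have 95% exact intervals, and an upper limit for a count of 0 uses 3 counts. Both cover counting error only. No 2 libraries of a group agreed within sampling noise. The chi-square per degree of freedom, lower for libraries more alike, was lowest for WT intranasal 2 against 3, at 11.8. TG drinking water 2 against 3 was next at 12.9. WT intranasal 1 stood at 90.4 against WT intranasal 2 and 77.5 against WT intranasal 3.

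The 10 genes and the marker lists were chosen with earlier results of these data known. The rule for naming besides the 10 took, from each other list, the genes called in a comparison or else the 2 with the smallest p in WT intranasal against WT control, and the 12 genes most like the set. Those of the Bergmann glia, interneuron, dopamine and hindbrain lists and of tissues not described are left out of the text, and 1 result that the rule takes is not reported here. Eligible for the last were named genes other than predicted genes and pseudogenes. Crtam, En2, Gabrd, Ppp1r17 and Th were described after their values were seen.

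The alternatives were DESeq2 1.42.0, RLE or upper-quartile scaling, no filter or one of 5 CPM in 3 libraries, a fit of only the groups compared, the replicate number as a block, a term for the split of libraries by an unnamed row, the rows of that split left out, WT intranasal 2 and 3 left out, and each library left out in turn. Chosen after seeing the data were leaving out WT control 1 and TG control 1, and a loess correction for transcript length. The fit was tested on simulated data.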

Additional observations from a re-analysis of the deposited data

How the results depend on the processing

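WT intranasal 2 and 3 and TG drinking water 3 hold the highest values of most of the 10 genes, and with 3 libraries a group a single library can turn a low gene. In edgeR 0 of the 10 genes were called in each of the 7 comparisons. RLE and upper-quartile scaling, the 5 CPM filter (8 of the 10 genes tested) and the compared groups alone (7 to 10 tested, by comparison) also called 0. So did the split term, the split's rows left out and the length correction. For WT intranasal against WT control these settings called 185, 0, 197, 2, 0, 0 and 41 genes in all, in that order, against 159. Where 0 genes were called in all, a 0 for the set says nothing about it. For WT intranasal against WT control 3 were called with no filter, 4 by DESeq2 and 2 with the replicate number as a block (Cbln3 at 3.67, Zic2 at 0.89), while calls over all genes went from 159 to 534, 1442 and 1587. DESeq2 called 1 for TG drinking water against TG control (171 of all genes) and 1 in the interaction (2406). Without WT control 1 and TG control 1 it was 1 for TG drinking water against TG control (Cbln1, 188 of all genes). Where no cause is stated, the cause was not tested.

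Same-numbered libraries correlated above 0.1 in 12 of 30 pairs (r from -0.20 to 0.24) and 10 of 15 libraries correlated best with their own number. The main fit did not take numbers as pairs, and whether they mark pairs was not tested. With the block, calls over all genes went from 2 to 531 in TG control against WT control. They went from 159 to 1587 in WT intranasal against WT control and from 367 to 2598 in the interaction. In TG intranasal against TG control they went from 1 to 0. The interaction then had 1 call among the 10 genes (Zic2 at -1.24). Barhl1 turned to -0.12 in TG control against WT control and Fat2 to 0.019 in TG intranasal against TG drinking water.

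These log2 fold changes also turned sign, none of them called. With the split term they were 1.96 for Gabra6 and 1.71 for Barhl1 in TG intranasal against WT intranasal, and 0.21 for Cbln1 and 1.02 for Barhl1 in the interaction. That term rests on TG control, the only group with libraries on both sides of the split. Without WT intranasal 2 and 3, WT intranasal against WT control gave -0.20 for Car8, -0.25 for Fat2, -0.18 for Cbln1 and -0.84 for Barhl1. TG intranasal against WT intranasal then gave 1.59 for Cbln3, 0.44 for Car8, 2.68 for Fat2, 0.10 for Neurod1 and 1.20 for Barhl1, and the interaction 1.42 for Cbln3, 0.15 for Car8, 2.42 for Fat2, 0.31 for Cbln1, 0.034 for Neurod1 and 1.05 for Barhl1. No value could be had there for Gabra6 and Pcp2, which had 0 counts. Without WT control 1 and TG control 1, TG control against WT control gave 0.017 for Pcp2 and -0.061 for Zic1, and the interaction 0.096 for Cbln1. With the length correction TG control against WT control gave -0.036 for Cbln3 and -0.46 for Fat2.

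Leaving out each library in turn gave 0 to 4 calls for WT intranasal against WT control (4 without WT intranasal 1, 1 each without WT control 3 and TG control 2, with 960, 346 and 1293 over all genes), 0 to 1 in the interaction (Zic2 without WT control 3, with 500 over all genes) and 0 in the other comparisons. Ranges of log2 fold changes that crossed 0 were as follows. In TG control against WT control they were -0.88 to 0.67 for Barhl1, -0.73 to 0.62 for Cbln3, -0.83 to 1.36 for Fat2, -0.17 to 0.19 for Neurod1, -1.01 to 0.33 for Pcp2 and -0.040 to 0.95 for Zic1. In TG intranasal against TG control they were -0.65 to 1.24 for Barhl1, -0.40 to 0.19 for Car8, -0.024 to 0.41 for Cbln1, -0.15 to 3.66 for Gabra6, -0.17 to 0.41 for Neurod1 and -0.49 to 1.13 for Pcp2. In TG intranasal against TG drinking water they were -1.38 to 0.087 for Barhl1, -0.26 to 0.34 for Car8, -1.84 to 2.09 for Cbln3, -1.25 to 1.43 for Fat2, -4.89 to 1.88 for Gabra6 and -2.24 to 0.25 for Pcp2. In TG drinking water against TG control they were -0.29 to 0.021 for Car8 and -0.39 to 3.87 for Cbln3. In the interaction they were -0.41 to 0.070 for Cbln1.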
